A study of Mus musculus with 12 samples.

Results

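The genes described here are the clustered histone genes, which in mouse carry the older symbols Hist1h, Hist2h, Hist3h and Hist4h. They were taken from the deposited table by symbol alone, and 55 of its 15366 genes matched. GENCODE M21 lists 70 such symbols, and 54 of the 55 members are annotated there as protein coding; the other is the pseudogene Hist3h2bb-ps. By type they were 5 genes of the linker histone H1, 13 of H2A, 16 of H2B, 10 of H3 and 11 of H4. By cluster, 45 lay in cluster 1 on chromosome 13, 6 in cluster 2 on chromosome 3, 3 in cluster 3 on chromosome 11 and 1 in cluster 4 on chromosome 6.

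Clustered histone genes make the bulk of histone protein during DNA replication, when new chromatin needs new nucleosomes. Their transcripts are unusual in that most end at a short RNA hairpin, the histone stem-loop, instead of a poly(A) tail; the stem-loop binding protein SLBP holds the hairpin and the U7 small nuclear RNP cuts just past it. Polyadenylated forms are also made from many of these genes, by reading on to a later poly(A) site, and are known in differentiating and non-dividing cells. The core histones H2A, H2B, H3 and H4 form the nucleosome, and H1 binds the DNA between nucleosomes.

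RNA was measured in LSK cells sorted from the bone marrow of untreated C57BL/6 mice; this fraction lacks lineage markers, carries Sca-1 and Kit, and holds stem cells and early progenitors of the blood. The libraries were primed with oligo-dT, so they cover histone RNA with an A-rich stretch to prime on; transcripts that end at the stem-loop without a tail were not measured as such. There were 4 groups of 3 libraries: KDM6B OE (genotype Vav human KDM6B, no Cre named), Tet2 KO (Vav Cre with Tet2 flox/flox), the double lesion (Vav human KDM6B, Vav Cre and Tet2 flox/flox) and the control, Vav Cre. KDM6B takes methyl groups off lysine 27 of histone H3, TET2 converts methylated cytosine to oxidised forms, and the Vav promoter is active throughout blood cells. Neither age nor sex is given, and nothing states that each library came from its own animal, so the spread behind the p-values may be partly technical. The genotype given for KDM6B OE names no Cre. If those mice lacked it, Cre and the transgene cannot be told apart in KDM6B OE against Vav Cre. Cre and Tet2 loss then cannot be told apart in the double lesion against KDM6B OE, and the interaction has the same limit.

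Depth ran from 21935022 to 26263370 reads on listed genes per library, and 1 read was worth 0.0373 to 0.0463 CPM (reads scaled to the size of the library). Tet2 was at 24.1 to 31.6 CPM in Tet2 KO, 26.5 to 37.2 CPM in the double lesion and 64.9 to 97.1 CPM in the other 6 libraries, as the labels say; the human transgene was not measured in a mouse alignment. All 10 LSK markers on the list used were present in every library, with a summed level of 2372 to 3800 CPM. Y chromosome transcripts were detected in 4 libraries: Tet2 KO 1, double lesion 1, double lesion 3 and Vav Cre 1. Vav Cre 3 stood apart from Vav Cre 1 and 2 in several abundant histone genes, and counts that change without it are given with each comparison.

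The label of this gene set speaks of a poly(A) signal, and the gene models bear on that in part. A histone stem-loop was found 21 to 54 bases after the stop codon in the GENCODE models of 35 members. Of these, 19 had models that ran 151 to 4884 bases past the stem-loop, here called extended, and 16 ended 11 to 74 bases past it. The search used a fixed pattern of 16 letters with few choices of letter. The models of the other 20 members held no match, here called no stem-loop, and a variant hairpin would be missed. Of these, 11 stopped at the stop codon itself, so the letters that could hold one are not in the model. Hist2h2be and Hist1h2bc ran 2192 and 742 bases past the stop without a match. The canonical poly(A) signal AATAAA stood within 40 bases of the end of the extended model in 7 members, of no model that ended near the stem-loop, and of a model without a stem-loop in 2 of the 20 members that had no other kind. Hist1h2be and Hist1h2bp held it only at the end of another of their transcripts, one without a stem-loop. AATAAA close to the end of a model was thus seen in a minority of the set. Other forms of the signal were not searched for, and AATAAA further from the end was not counted here. In 15 members without a stem-loop the model holds under 50 bases after the stop, so a signal could be missed there. The name "clustered histone genes" is therefore used here. Sites used in these cells were not measured.

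The stem-loops below belong to members on which the results turn: the abundant genes that were lower in the double lesion, a member called lower in both transgenic groups, and members that were not lower. Each line gives 30 bases of the GENCODE M21 transcript, with the stem-loop in capitals.
Hist1h2ae: caaaGGCTCTTTTCAGAGCCattcacttaa
Hist1h1e: caaaGGCTCTTTTCAGAGCCacccacaact
Hist1h4d: caaaGGCCCTTTTCAGGGCCactaccttct
Hist1h2bp: caaaGGCTCTTTTCAGAGCCacccacattc
Hist1h1c: aaaaGGCTCTTTTCAGAGCCaccactccca
Hist1h2bg: caaaGGCTCTTTTCAGAGCCacccatactg
Hist3h2a: caaaGGCTCTTTTCAGAGCCacccacaacc
Hist1h4i: taaaGGCCCTTTTTAGGGCCaccacaaaat
The 16 letters of the hairpin were the same in Hist1h2ae, Hist1h1e and Hist1h2bp as in Hist1h1c, Hist1h2bg and Hist3h2a, although these genes differed in their values below. That form, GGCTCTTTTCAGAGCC, was found in 20 members, and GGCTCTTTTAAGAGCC and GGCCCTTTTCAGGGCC in 5 each. The lines lie on chromosome 13 of GRCm38 at chr13:23570658-23570687 (minus strand) for Hist1h2ae, chr13:23621772-23621801 (minus) for Hist1h1e, chr13:23581946-23581975 (plus) for Hist1h4d and chr13:21787919-21787948 (plus) for Hist1h2bp. Those of Hist1h1c, Hist1h2bg and Hist1h4i lie at chr13:23739508-23739537 (plus), chr13:23571839-23571868 (plus) and chr13:22040956-22040985 (minus), and that of Hist3h2a at chr11:58955168-58955197 (plus).

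Promoters from RefSeq (GRCm38.p6, 250 bases before to 50 bases after the annotated start) matched 49 members. The octamer ATTTGCAT, read on either strand, was in 6 of 13 H2A and 6 of 13 H2B promoters and in no H1, H3 or H4 promoter; 1.74% of all 32851 RefSeq promoter windows hold it. CCAAT was in 42 of 49 (all but 7 H4 promoters), against 37.4% of all windows, and TATAAA in 30 of 49, against 13.6%. No match overlapped another. A match of letters describes the window and is not evidence of binding. The promoters of Hist1h2bg, Hist2h2bb and Hist1h1c are printed because the first also covers the start of its neighbour Hist1h2ae, the second belongs to the member with the strongest call in KDM6B OE, and the third to the member with the highest positive difference. Capitals mark ATTTGCAT, TATAAA and CCAAT or their reverse complements.
Hist1h2bg, chr13:23571150-23571449, plus strand: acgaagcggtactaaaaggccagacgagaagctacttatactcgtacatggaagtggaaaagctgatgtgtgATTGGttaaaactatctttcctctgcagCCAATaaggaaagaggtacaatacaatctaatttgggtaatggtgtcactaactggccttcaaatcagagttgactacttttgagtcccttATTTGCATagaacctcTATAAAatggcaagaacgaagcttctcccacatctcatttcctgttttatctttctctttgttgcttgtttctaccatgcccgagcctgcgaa
Hist2h2bb, chr3:96269450-96269749, plus strand: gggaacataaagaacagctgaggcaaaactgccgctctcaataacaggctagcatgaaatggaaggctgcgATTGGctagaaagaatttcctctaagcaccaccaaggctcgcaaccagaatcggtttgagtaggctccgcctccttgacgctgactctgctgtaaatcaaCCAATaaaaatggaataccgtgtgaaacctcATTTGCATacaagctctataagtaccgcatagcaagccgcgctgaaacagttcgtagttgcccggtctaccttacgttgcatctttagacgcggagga
Hist1h1c, chr13:23738557-23738856, plus strand: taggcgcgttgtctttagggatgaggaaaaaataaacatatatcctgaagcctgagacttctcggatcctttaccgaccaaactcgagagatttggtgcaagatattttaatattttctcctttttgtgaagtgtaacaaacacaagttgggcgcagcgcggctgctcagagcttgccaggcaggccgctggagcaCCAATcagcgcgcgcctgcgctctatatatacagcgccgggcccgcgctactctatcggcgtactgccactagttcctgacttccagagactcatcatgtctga
In the printed window of Hist1h2bg the octamer begins 59 bases before its start and TATAAA begins 43 bases before it. The window of Hist1h2ae holds the same octamer on the opposite strand.

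Clustered histone RNA was a small part of these libraries. The 55 members together took 0.0748% to 0.181% of the CPM of a library, and Hist1h2ae, Hist1h1b and Hist1h1e alone took 36.8% to 53.3% of that. Scaled by exon length and averaged over the 12 libraries, the highest levels were 294 CPM per kb for Hist1h2ae, 197 CPM per kb for Hist1h1b, 106 CPM per kb for Hist1h4d and 68.2 CPM per kb for Hist1h1e. The summed CPM of all members was 888, 850 and 850 in KDM6B OE, 776, 1091 and 1036 in Tet2 KO, 709, 929 and 897 in the double lesion, and 1469, 1947 and 1125 in Vav Cre. All 9 lesion libraries were below all 3 control libraries in this sum, and Vav Cre 3 was the control nearest to them. In bulk RNA, fewer cells making a transcript and less of it per cell cannot be told apart.

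**Figure D1:**
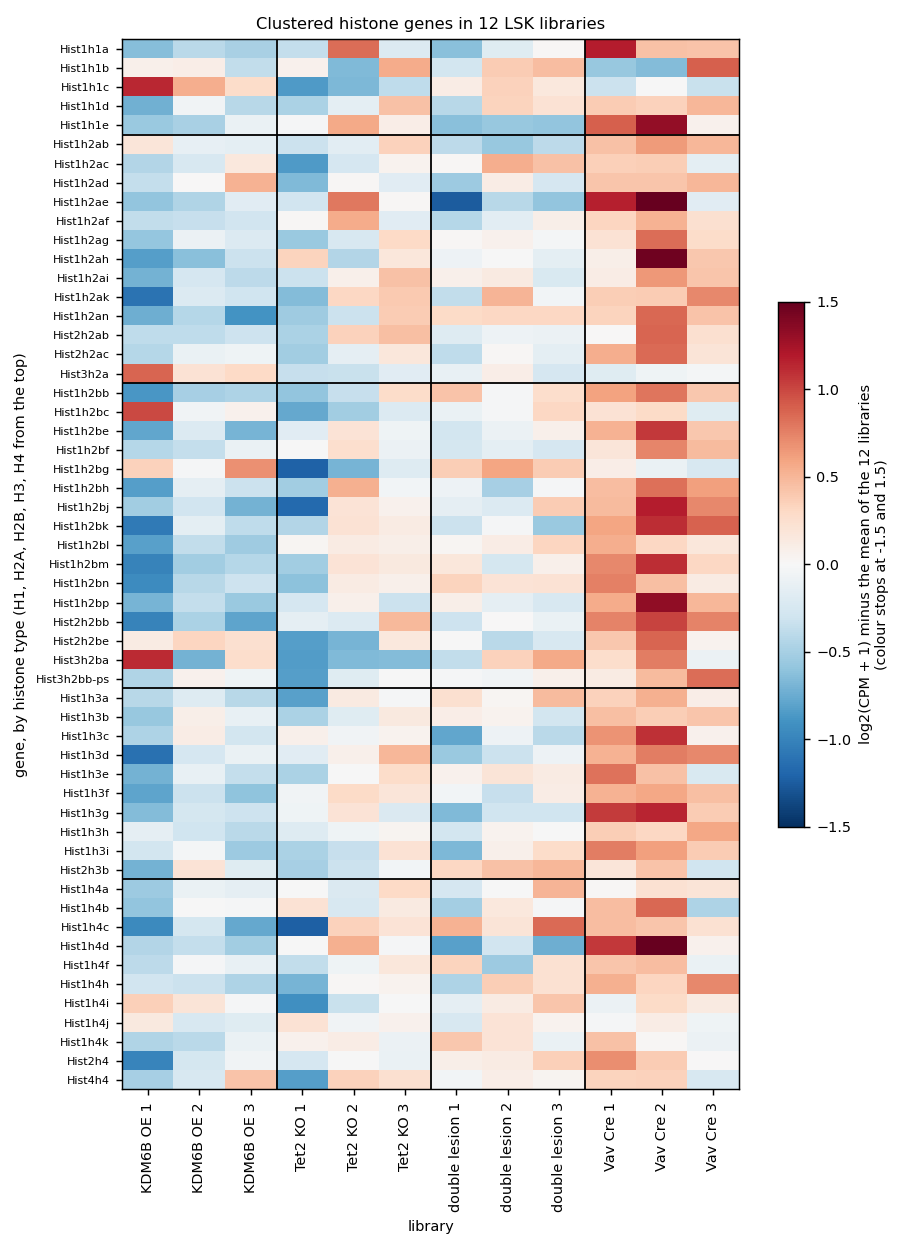
Each row is a clustered histone gene, grouped by type, and each column a library; colour gives log2(CPM + 1) minus the mean of the gene over the 12 libraries. Vav Cre columns at the right are mostly above the mean; Hist1h1c, Hist1h1b and Hist3h2a are among the rows that break this pattern.

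Tests used limma on log2(CPM + 1) over the 13046 genes that exceeded 1 CPM in 3 or more libraries, and a gene was called at a Benjamini-Hochberg adjusted p under 0.05. Of the members 52 passed that filter. Hist1h3h, Hist1h4j and Hist1h4k did not (0.0780 to 1.14, 0.0373 to 0.429 and 0.0881 to 1.02 CPM). None passed through Vav Cre libraries alone, but Hist1h2af, Hist1h2bf, Hist1h3b and Hist1h4a passed with fewer than 3 libraries outside Vav Cre. Directions are therefore given over all 55.

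The question of the first comparison is what goes with the KDM6B transgene alone. Clustered histone genes were mostly lower in KDM6B OE than in Vav Cre, with 3 H2B genes and 1 H3 gene past the test. The median log2 difference of the 55 members was −0.76 and 49 were negative, beside a median of 0.03 and 45.1% negative over all genes in the table. Of 52 tested members 4 were called lower and 0 higher; over all tested genes 0.0767% were called lower and 0.521% higher. In 38 of 55 members all KDM6B OE libraries lay below all Vav Cre libraries, against 10.9% of all tested genes; in 2 all lay above, against 11.6%.

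Hist2h2bb, an H2B gene of cluster 2 (chr3:96269752-96270132), was at 3.79, 5.90 and 4.53 CPM in KDM6B OE, against 15.0, 18.3 and 15.0 CPM in Vav Cre. The ranges were far apart, and the gene fell by 1.59 ± 0.23 on the log2 scale (SE, adjusted p = 0.00690), or 3.01-fold. All of its 50-base windows also occur in other annotated genes, among them Gm42743, which overlaps it on the same strand, so its reads are uncertain in source. The kit does not mark strand, and Gm20628 overlaps it on the other strand.

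Hist1h2bp (chr13:21787461-21789213), an H2B gene of cluster 1, was at 1.19, 1.76 and 1.40 CPM in KDM6B OE, against 4.20, 7.87 and 3.998 CPM in Vav Cre (−1.33 ± 0.27, adjusted p = 0.0432). Hist1h2be (chr13:23583670-23621124), a further H2B gene, was at 3.39, 5.57 and 3.67 CPM in KDM6B OE, against 9.85, 14.7 and 9.01 CPM in Vav Cre (−1.22 ± 0.24, adjusted p = 0.0432). Hist1h3g (chr13:23535422-23535951), an H3 gene, was at 2.11, 3.07 and 2.97 CPM in KDM6B OE, against 9.13, 9.79 and 5.40 CPM in Vav Cre (−1.27 ± 0.26, adjusted p = 0.0456). None of these 3 overlapped between groups, and all were low in CPM. They share 55.3%, 18% and 54.1% of their windows with other genes, and the model of Hist1h2be overlaps Hist1h1e on the same strand, so counts may be split between copies.

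By type, the median difference in KDM6B OE was −1.03 for H2B (14 of 16 negative), −0.81 for H1 (3 of 5), −0.78 for H3 (10 of 10), −0.73 for H2A (12 of 13) and −0.44 for H4 (10 of 11). Some members just missed the threshold. Hist1h4d, the most abundant H4 gene, was at −1.32 ± 0.28 (adjusted p = 0.0518), Hist1h2bk at −1.39 ± 0.29 (adjusted p = 0.0518) and Hist1h1e at −1.14 ± 0.25 (adjusted p = 0.0569). Hist1h2ae, the most abundant member, was at −1.39 ± 0.41 (adjusted p = 0.116).

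A few members were not lower. Hist1h1c (chr13:23738808-23740367), a linker histone gene singled out after its values were seen, was at 111, 73.6 and 60.8 CPM in KDM6B OE, against 39.7, 49.9 and 39.5 CPM in Vav Cre. Every transgenic library was above every control, and the difference of 0.87 ± 0.20 did not pass (adjusted p = 0.0620). Hist3h2a, an H2A gene of cluster 3, was at 86.9, 54.7 and 57.9 CPM in KDM6B OE, against 41.5, 45.0 and 46.1 CPM in Vav Cre (0.55 ± 0.17, adjusted p = 0.117). Hist1h2bg was at 0.42 ± 0.24 (adjusted p = 0.330), Hist1h2bc at 0.23 ± 0.26 (adjusted p = 0.638), and Hist1h4i and Hist1h1b were at 0.06 and 0.04 with overlapping libraries. For Hist1h1c and Hist3h2a KDM6B OE 1 was the highest library of all 12.

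The number of calls moved with single libraries. It was 0 without KDM6B OE 1, 10 without Tet2 KO 2 and 23 (22 lower, 1 higher) without Vav Cre 3, and 1 or 2 without any 1 of the other 9. With DESeq2 on the recovered reads it was 24 (22 lower, 2 higher), and a fit of the compared groups alone gave 1. Calls over all genes moved too: 614 lower and 1320 higher without Vav Cre 3, and 370 lower and 367 higher with DESeq2, against 10 lower and 68 higher with all libraries in limma. The median over tested members was between −0.90 and −0.69 when any 1 library was left out, and between −1.19 and −0.44 in the other 10 alternatives.

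**Figure D2:**
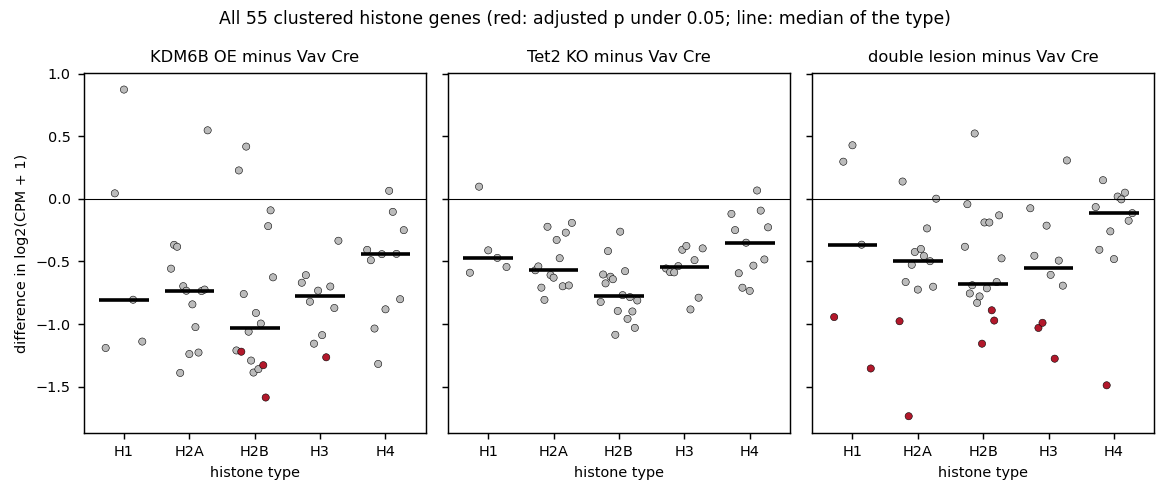
Each point is 1 of the 55 genes, placed by histone type; the vertical axis is the difference in log2(CPM + 1) from Vav Cre, red marks an adjusted p under 0.05 and the line is the median of the type. Red points number 4 in KDM6B OE, 0 in Tet2 KO and 11 in the double lesion, all of them below 0.

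Tet2 KO against Vav Cre asks what goes with loss of Tet2, both groups carrying Cre. No clustered histone gene passed the test, although 53 of 55 values were negative. The median was −0.58, beside 0.03 and 45.6% negative over all genes in the table. Over all tested genes 0.00767% were called lower and 0.0230% higher, and 24 members had an unadjusted p under 0.05, against 13.5% of all tested genes. In 23 of 55 members the Tet2 KO libraries all lay below the Vav Cre libraries, against 5.70% of all tested genes; none had all of them above, against 6.87%. The exceptions to the negative direction were Hist1h1b, at 0.10 ± 0.37, and Hist1h4j, which was below the filter.

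The lowest adjusted p was that of Hist1h2bp, at 1.97, 2.73 and 1.83 CPM in Tet2 KO libraries, against 4.20, 7.87 and 3.998 CPM in Vav Cre (−0.96 ± 0.27, adjusted p = 0.224). Hist2h2bb was at 7.72, 7.32 and 12.4 CPM in Tet2 KO libraries, against 15.0, 18.3 and 15.0 CPM in Vav Cre (−0.78 ± 0.23, adjusted p = 0.243). Both genes were lower in every Tet2 KO library. Hist1h2ae overlapped, with 139, 294 and 172 CPM in Tet2 KO libraries, against 382, 653 and 151 CPM in Vav Cre (−0.81 ± 0.41, adjusted p = 0.410). By type the medians were −0.78 for H2B, −0.57 for H2A, −0.55 for H3, −0.47 for H1 and −0.35 for H4. Without Vav Cre 3 the number called was 5, all lower, beside 40 lower and 267 higher over all genes. Without any other library, and in edgeR and DESeq2, it was 0; DESeq2 called 42 genes lower and 118 higher over the table.

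In the double lesion against Vav Cre 11 of 52 tested clustered histone genes were called, all lower. They comprised 2 H1, 2 H2A, 3 H2B, 3 H3 and 1 H4 gene. This comparison had many calls throughout the table, 7.58% of tested genes lower and 7.34% higher. Over the 55 members the median was −0.46 and 46 were negative, beside 0.05 and 44.8% over all genes in the table. All double lesion libraries lay below all Vav Cre libraries in 30 of 55 members and above them in 2. The shares over all genes in the table were 14.3% and 15.6%.

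The largest differences among the called members were those of Hist1h2ae, Hist1h4d and Hist1h1e. Hist1h2ae (chr13:23570517-23571220), an H2A gene, was at 70.6, 126 and 112 CPM in the double lesion, against 382, 653 and 151 CPM in Vav Cre (−1.74 ± 0.41, adjusted p = 0.0187). Hist1h4d (chr13:23581598-23582735), an H4 gene, was at 59.6, 86.8 and 63.5 CPM in the double lesion, against 223, 302 and 111 CPM in Vav Cre (−1.49 ± 0.28, adjusted p = 0.00773). Hist1h1e (chr13:23620629-23622558), a linker histone gene, was at 76.6, 80.2 and 78.7 CPM in the double lesion, against 223, 298 and 125 CPM in Vav Cre (−1.36 ± 0.25, adjusted p = 0.00707). The groups did not overlap for any of these genes, but Vav Cre 3 lay well below the other controls in all of them. Without Vav Cre 3 their differences were −2.31, −1.90 and −1.70.

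Hist1h2ab (chr13:23751126-23751598), an H2A gene, was at 14.9, 13.1 and 15.0 CPM in the double lesion, against 27.4, 31.7 and 28.5 CPM in Vav Cre (−0.98 ± 0.19, adjusted p = 0.00839). Here the controls lay close together. Hist1h3g was at 2.09, 2.98 and 2.996 CPM in the double lesion, against 9.13, 9.79 and 5.40 CPM in Vav Cre (−1.28 ± 0.26, adjusted p = 0.0105). Hist2h2bb was at 6.68, 8.61 and 7.90 CPM in the double lesion, against 15.0, 18.3 and 15.0 CPM in Vav Cre (−0.97 ± 0.23, adjusted p = 0.0192). These genes, too, were apart in all libraries.

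Hist1h2bk (chr13:22035870-22036345), an H2B gene, was at 2.28, 3.06 and 1.79 CPM in the double lesion, against 5.18, 7.82 and 6.55 CPM in Vav Cre (−1.16 ± 0.29, adjusted p = 0.0233). Hist1h3d (chr13:23575763-23577011), an H3 gene, was at 5.78, 6.98 and 8.48 CPM in the double lesion, against 13.4, 16.01 and 15.5 CPM in Vav Cre (−0.99 ± 0.28, adjusted p = 0.0319). Hist1h3c (chr13:23744973-23745602), a further H3 gene, was at 0.970, 2.23 and 1.56 CPM in the double lesion, against 4.41, 6.22 and 2.55 CPM in Vav Cre (−1.03 ± 0.30, adjusted p = 0.0363). All were lower in each double lesion library, Hist1h3c by a narrow margin to Vav Cre 3. Hist1h2bp was at 2.76, 2.23 and 1.98 CPM in the double lesion, against 4.20, 7.87 and 3.998 CPM in Vav Cre (−0.89 ± 0.27, adjusted p = 0.0413). Hist1h1a (chr13:23763666-23764406), a linker histone gene that shares no window with another gene, was at 17.8, 24.7 and 28.4 CPM in the double lesion, against 64.6, 38.4 and 38.2 CPM in Vav Cre (−0.94 ± 0.29, adjusted p = 0.0451).

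The type medians were −0.68 for H2B, −0.55 for H3, −0.50 for H2A, −0.37 for H1 and −0.11 for H4, in which 8 of 11 were negative. Members that were not lower included Hist1h2bg, at 28.6, 33.6 and 28.9 CPM in the double lesion, against 23.7, 20.5 and 18.5 CPM in Vav Cre (0.52 ± 0.24, adjusted p = 0.154). Hist1h1c was at 54.3, 63.8 and 56.0 CPM in the double lesion, against 39.7, 49.9 and 39.5 CPM in Vav Cre (0.43 ± 0.20, adjusted p = 0.152). The libraries of these genes did not overlap, yet neither difference passed. Hist1h1b, the linker histone gene with the widest control spread, was at 114, 179 and 190 CPM in the double lesion, against 92.2, 87.3 and 257 CPM in Vav Cre (0.30 ± 0.37, adjusted p = 0.618). Hist3h2a was at 0.0019 ± 0.17 (adjusted p = 0.996).

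The remaining members that led their type in mean CPM overlapped between the double lesion and Vav Cre. Hist1h2bc, an H2B gene, was at 52.0, 24.7 and 26.9 CPM in KDM6B OE, 14.7, 17.6 and 22.1 CPM in Tet2 KO libraries, 23.8, 25.4 and 32.1 CPM in the double lesion, and 30.0, 31.5 and 22.5 CPM in Vav Cre. It was high in KDM6B OE 1 alone, and lower than every control in Tet2 KO (−0.60 ± 0.26, adjusted p = 0.337). Hist1h4i, an H4 gene, was at 11.8, 10.4 and 8.78 CPM in KDM6B OE, 4.24, 6.90 and 8.87 CPM in Tet2 KO libraries, 8.02, 9.81 and 12.2 CPM in the double lesion and 8.36, 11.2 and 9.88 CPM in Vav Cre, with overlap in each comparison with Vav Cre. Hist2h3b, an H3 gene all of whose windows occur in other genes, was at 2.47, 5.53 and 3.98 CPM in KDM6B OE, 3.001, 3.52 and 4.49 CPM in Tet2 KO libraries, 6.01, 6.68 and 6.96 CPM in the double lesion and 5.43, 6.63 and 3.60 CPM in Vav Cre. Its difference in the double lesion was 0.31 ± 0.27 (adjusted p = 0.467).

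Calls of Hist1h1e, Hist1h2ab and Hist1h4d held under all 22 alternatives run, while that of Hist1h1a ended in 14 and that of Hist1h2bp in 12 of the 22. The number called was 3 without double lesion 1, 4 without Vav Cre 2, 5 without double lesion 3, 7 without double lesion 2 and 15 without Vav Cre 3. A fit of the compared groups alone gave 3, and with a term for Y chromosome transcripts, which are present in 2 of 3 double lesion and 1 of 3 Vav Cre libraries, it was 7. Calls over all genes moved: 143 lower and 161 higher without double lesion 1, and 1543 lower and 2042 higher without Vav Cre 3. They were 138 lower and 151 higher with the compared groups alone, and 691 lower and 663 higher with the Y term. With all libraries in limma they were 989 lower and 958 higher.

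**Figure D3:**
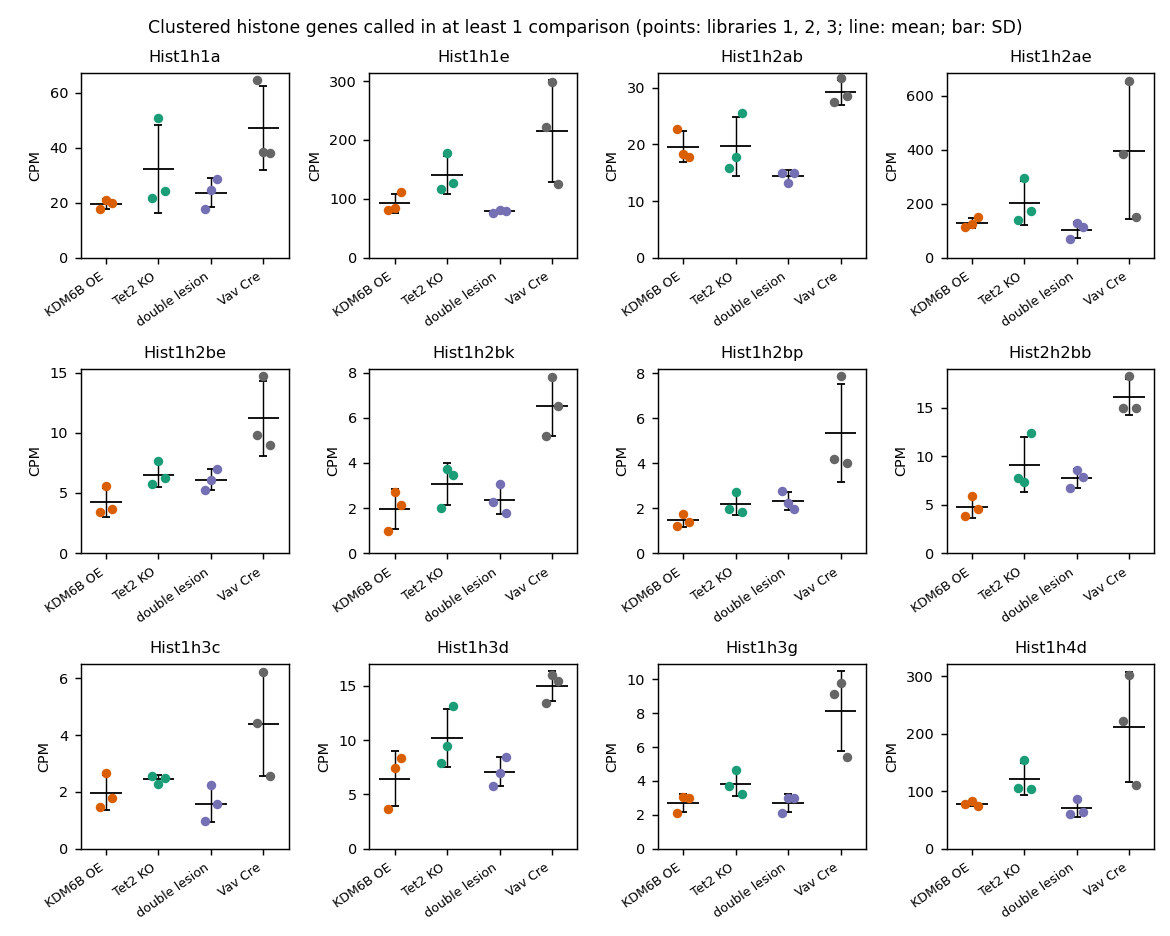
Each panel gives the CPM of 1 gene that passed the test in at least 1 comparison, with points for libraries, a line for the group mean and a bar for 1 SD (n = 3). Vav Cre, at the right of each panel, is the highest group by its mean, and its spread is widest for Hist1h2ae, Hist1h4d and Hist1h1e.

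Some genes on marker lists of other cells also passed in the double lesion, beside 7.58% of all tested genes lower and 7.34% higher. Of 4 eosinophil markers 3 rose (Prg2, Epx and Ear1); the list summed to 133 to 721 CPM in KDM6B OE, 151 to 801 CPM in Tet2 KO libraries, 505 to 4033 CPM in the double lesion and 9.18 to 564 CPM in Vav Cre. Of 6 neutrophil markers 3 rose (S100a8, S100a9 and Ngp), with a summed level of 193 to 292 CPM in KDM6B OE, 86.6 to 321 CPM in Tet2 KO libraries, 147 to 394 CPM in the double lesion and 60.3 to 258 CPM in Vav Cre. Of 6 monocyte markers only Cd14 was called, and it was higher (0.93 ± 0.28). Of 5 mast cell and basophil markers only Gata2 was called, higher (0.67 ± 0.18), and 2 of the 5 were negative. Of 4 megakaryocyte markers only Pf4 was called, and it was lower (−1.04 ± 0.32). A single gene does not identify a cell type. No T and NK cell marker (3 of 5 tested) or erythroid marker (3 of 6 tested) passed. Ear1, Camp, Ltf and S100a9 were listed at 0 in at least 1 library. The part of these cells in the histone values was not tested.

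The double lesion was next set against each single lesion. Against KDM6B OE no member passed (0% of tested genes were called), the median was 0.23 and 42 of 55 were positive. The lowest adjusted p was that of Hist1h2an, an H2A gene, at 7.65, 7.81 and 7.82 CPM in the double lesion, against 3.26, 4.26 and 2.81 CPM in KDM6B OE (0.99 ± 0.26, adjusted p = 0.461). Hist3h2a was lower, at 43.5, 50.6 and 39.3 CPM in the double lesion, against 86.9, 54.7 and 57.9 CPM in KDM6B OE (−0.55 ± 0.17, adjusted p = 0.576). Neither pair of groups overlapped; 17 members had all double lesion libraries higher and 4 had all lower, against 8.98% and 9.72% of tested genes. At an unadjusted p under 0.05 there were 13 members, against 5.91% of all tested genes, and edgeR and DESeq2 also called 0.

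Against Tet2 KO the median was 0.07, with 33 of 55 positive and none past the test; 0.0230% of tested genes were called lower and 0.192% higher, and 11 members had an unadjusted p under 0.05, against 10.6% of all tested genes. Hist1h2bg was at 28.6, 33.6 and 28.9 CPM in the double lesion, against 8.92, 13.2 and 19.0 CPM in Tet2 KO (1.15 ± 0.24, adjusted p = 0.0936). Hist1h1c was at 54.3, 63.8 and 56.0 CPM in the double lesion, against 27.4, 31.0 and 38.3 CPM in Tet2 KO (0.84 ± 0.20, adjusted p = 0.151). In the other direction Hist1h1e was at 76.6, 80.2 and 78.7 CPM in the double lesion, against 117, 178 and 127 CPM in Tet2 KO (−0.81 ± 0.25, adjusted p = 0.292). All were apart in every library. Of the 55 members 7 had all double lesion libraries lower and 7 had all higher (12.7% each), against 9.74% and 10.3% of all genes in the table. The number called was 3 (1 lower, 2 higher) with array weights, 2 with DESeq2, and 1 without Tet2 KO 3. Over all genes it was 63 lower and 110 higher with array weights, and 52 lower and 91 higher with DESeq2. Without Tet2 KO 3 it was 0 lower and 18 higher, against 3 lower and 25 higher with all libraries in limma.

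The interaction term compares the double lesion with the sum of both single differences. Its median was 0.84 over the 55 members, 53 of which were positive, so the double lesion was less low than the sum of the single lesions; the median over all genes in the table was −0.03. No member passed in limma, edgeR or DESeq2 (26 had an unadjusted p under 0.05, against 4.43% of all tested genes, and 0% of all tested genes were called in limma). The 3 terms of this contrast share the Vav Cre libraries, and a high control value raises the interaction as it lowers each difference. For Hist2h2bb the interaction was 1.40 ± 0.33 (adjusted p = 0.999), from differences of −1.59 in KDM6B OE, −0.78 in Tet2 KO and −0.97 in the double lesion.

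The 3′ end of the gene model gave a further split. In the double lesion the median was −0.17 over the 19 extended members (13 negative), −0.68 over the 16 that end near the stem-loop (16 negative) and −0.47 over the 20 without a stem-loop in the model (17 negative). The extended class also held the extremes, from −1.74 for Hist1h2ae to 0.52 for Hist1h2bg. In KDM6B OE the class medians were −0.80, −0.75 and −0.79, and in Tet2 KO −0.54, −0.65 and −0.53. Hist1h1c, Hist1h2bg and Hist3h2a, the members above 0.35 in KDM6B OE, were all extended, by 840, 155 and 1643 bases. So were Hist1h2ae, Hist1h1e and Hist1h4d, by 151, 1153 and 770 bases, which were lower.

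**Figure D4:**
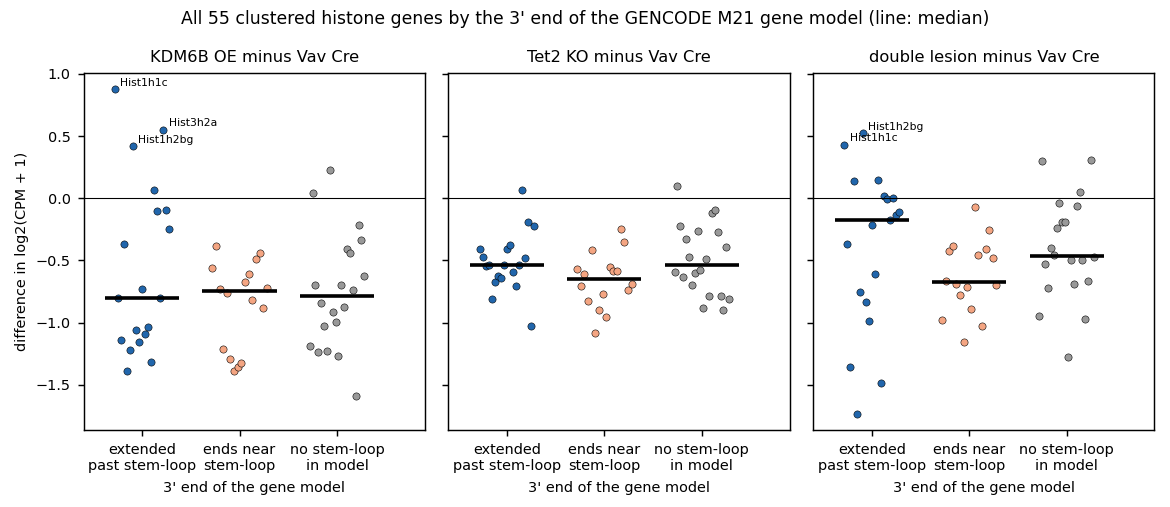
Points are the 55 genes, placed by the 3′ end of the gene model, with the difference in log2(CPM + 1) from Vav Cre on the vertical axis and a line at the class median. The extended class spans both directions in KDM6B OE and the double lesion, while every gene that ends near the stem-loop is below 0 in all 3 panels.

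Many clustered histone genes are near-copies. Over 50% of the 50-base windows of 25 members occur in another annotated gene, 3 members (Hist1h1a, Hist1h1b and Hist2h2be) share none, and 18 members overlap exons of another gene. An overlapping gene was counted as another gene, so part of a share can be the same stretch annotated again. Hist2h2bb shared its windows with 2 other genes, neither of them with a clustered histone symbol. Members with at most 50% of windows shared had medians of −0.74 in KDM6B OE (24 of 30 negative), −0.57 in Tet2 KO (28 of 30) and −0.31 in the double lesion (23 of 30). Those with more had medians of −0.76 (25 of 25 negative), −0.58 (25 of 25) and −0.50 (23 of 25). How the authors' counting treated reads that match several copies is not given in the sources used here, so a value of a single near-copy is uncertain.

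H2A and H2B genes often stand head to head and share the stretch between their starts. Among the members 11 pairs stood head to head with starts within 1000 bases: 10 of H2A with H2B, 1 of these with the pseudogene Hist3h2bb-ps, and 1 of H2B with H3 (Hist1h2bh and Hist1h3f). Hist1h2ae and Hist1h2bg, whose starts are 176 bases apart, took opposite directions: −1.39 ± 0.41 and 0.42 ± 0.24 in KDM6B OE, and −1.74 ± 0.41 and 0.52 ± 0.24 in the double lesion. In Tet2 KO they were at −0.81 ± 0.41 and −0.62 ± 0.24. Of all 11 pairs, 8 had the same sign in KDM6B OE, 11 in Tet2 KO and 8 in the double lesion. As 49, 53 and 46 of the 55 members were negative there, most pairs of members share a sign wherever they stand. These counts therefore cannot show whether head-to-head genes move together. Pairs in which the members stood close included Hist1h2bl and Hist1h2ai, at −0.91 and −0.84 in KDM6B OE. The difference between the members of a pair was not tested.

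**Figure D5:**
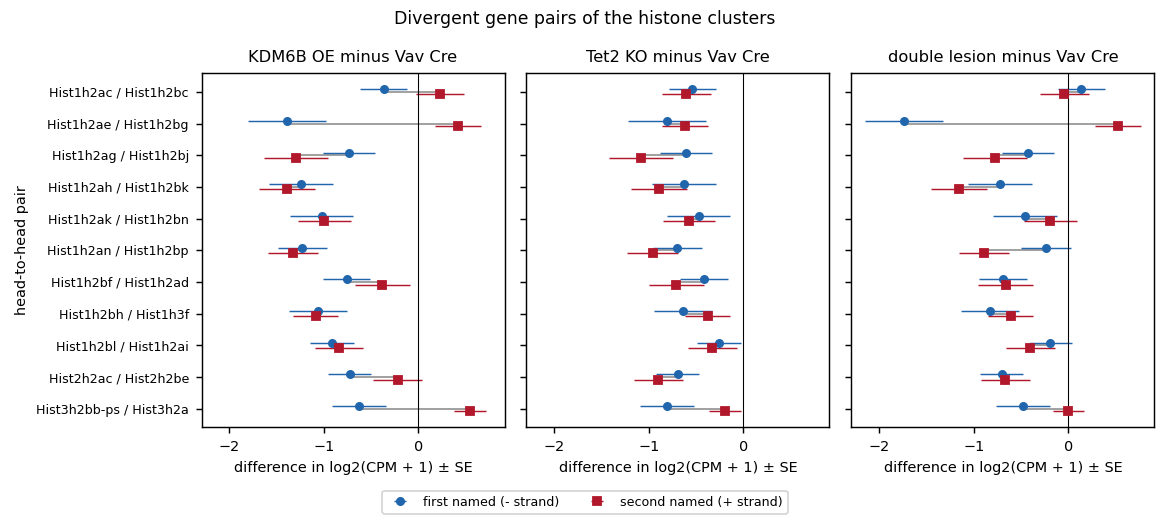
Each row is a pair of genes transcribed away from a shared stretch; circles are the gene on the minus strand and squares the gene on the plus strand, with the difference in log2(CPM + 1) from Vav Cre and bars of 1 SE on a common axis. Hist1h2ae and Hist1h2bg stand furthest apart in KDM6B OE and the double lesion.

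Histone genes outside the clusters, listed here as replication-independent, were read beside the clustered ones. How far each of them depends on replication was not tested. In the double lesion 7 of 11 fell and 1 rose, against the 7.58% and 7.34% of all tested genes above. H2afz, which encodes the variant H2A.Z, was at 1196, 1563 and 1581 CPM in the double lesion, against 2420, 3495 and 2236 CPM in Vav Cre (−0.89 ± 0.16, adjusted p = 0.00721). H3f3a and H3f3b both encode the variant H3.3 and went opposite ways. H3f3a was at 776, 981 and 989 CPM in the double lesion, against 1425, 1823 and 1112 CPM in Vav Cre (−0.65 ± 0.17, adjusted p = 0.0283). H3f3b was at 3919, 4458 and 4321 CPM in the double lesion, against 3153, 2744 and 2463 CPM in Vav Cre (0.61 ± 0.15, adjusted p = 0.0232). Also lower were the centromeric histone gene Cenpa (−1.23 ± 0.21, adjusted p = 0.00561), H2afx, whose product is phosphorylated at DNA breaks (−0.66 ± 0.15, adjusted p = 0.0163), H2afv (−0.71), the macroH2A gene H2afy (−0.62) and H2afj (−0.45). None of the 11 passed in KDM6B OE or Tet2 KO, where the medians were −0.23 and −0.31.

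The machinery that makes and trims histone RNA showed 1 call in 40 genes in the double lesion. Of all tested genes 7.58% were lower and 7.34% higher there. The call was Nudt21, a subunit of the complex that helps choose poly(A) sites (−0.58 ± 0.16, adjusted p = 0.0336). Slbp, which encodes the stem-loop binding protein, was at 321, 386 and 426 CPM in the double lesion, against 427, 457 and 380 CPM in Vav Cre (−0.16 ± 0.13, adjusted p = 0.400). Npat, which encodes a coactivator of histone gene transcription, was at 41.6, 42.0 and 51.2 CPM in the double lesion, against 46.1, 45.5 and 68.1 CPM in Vav Cre (−0.22 ± 0.17, adjusted p = 0.391). Both genes overlapped between groups. Casp8ap2, a partner of NPAT, was at −0.15, and the U7 particle proteins Lsm10 and Lsm11 were at −0.17 and −0.40, none past the test. No gene of this list passed in KDM6B OE or Tet2 KO, where the list medians were 0.04 and 0.01.

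Of 25 histone chaperone and assembly genes 5 fell in the double lesion and 2 rose, beside 7.58% of all tested genes lower and 7.34% higher. Nasp, which encodes a carrier of H3 and H4, was at 87.7, 95.1 and 105 CPM in the double lesion, against 165, 220 and 154 CPM in Vav Cre (−0.88 ± 0.14, adjusted p = 0.00428). Asf1b, a chaperone gene of dividing cells, was at −0.81 ± 0.17 (adjusted p = 0.0125), and the FACT subunit gene Supt16 at −0.64, with Nap1l1 at −0.76 and Npm1 at −0.67. The higher genes were Cabin1 (0.53 ± 0.16, adjusted p = 0.0376) and Ipo4 (0.56 ± 0.18, adjusted p = 0.0488). Chaf1a and Chaf1b, subunits of the replication-coupled assembly factor CAF-1, were at 0.11 and −0.05 and did not pass.

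Genes of S phase and replication, the phase in which clustered histone genes are used, were lower in the double lesion in 17 of 49 cases and higher in none, beside the same shares of all tested genes. Mki67, a marker of cycling cells, was at 249, 354 and 336 CPM in the double lesion, against 575, 633 and 594 CPM in Vav Cre (−0.95 ± 0.13, adjusted p = 0.00282). Tk1, thymidine kinase, was at 72.0, 106 and 107 CPM in the double lesion, against 186, 202 and 184 CPM in Vav Cre (−1.02 ± 0.16, adjusted p = 0.00432). Both were apart in all libraries. Pcna, the replication clamp, was at −0.40 ± 0.12 (adjusted p = 0.0453), and the helicase subunit gene Mcm2 at 0.07 ± 0.15 (adjusted p = 0.785). Other lower genes included Gins1, Gins2, Gins4, Rfc1, Rfc5, Rrm1, Rrm2, Tyms, Fen1, Lig1, Clspn, Orc6 and Dut, from −0.89 for Clspn to −0.43 for Lig1. The list median was −0.32 in the double lesion and −0.14 in both KDM6B OE and Tet2 KO, where no gene of it passed, beside −0.46, −0.76 and −0.58 for the clustered histone genes. The part of the cell cycle in the histone values was not tested.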

How the data were processed

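Poly(A) RNA of sorted bone marrow LSK cells, 10 to 20 ng of total RNA per library, was amplified with a SMARTer oligo-dT kit and made into Nextera libraries, per the labels' protocols. Per the submitters' processing notes the authors used HTSeq 0.6.0, TopHat2 2.0.10 and edgeR 3.8.6 with mm10. Annotation, strand setting and treatment of multiply matching reads are not given in these sources. Values in the authors' deposited table are a signal unit, reads scaled to the effective size of the library (CPM), with 15366 genes and at least 10 reads per gene over the 12 libraries. Whole reads came back for 100% of values within a tolerance of 1e-06.

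Members were matched by symbol. The members, gene lists and tests were chosen with earlier results of these data known. limma 3.58.1 (R 4.3.3; empirical Bayes with a mean trend) was run on log2(CPM + 1), which understates changes of low genes, with all 12 libraries and a mean for each of the 4 groups; there was no covariate, which left 8 residual degrees of freedom. Genes needed a CPM above 1 in at least 3 libraries; 13046 were tested and 2320 set aside. Adjusted p-values are Benjamini-Hochberg over all tested genes within a comparison. Values per library are given for members called in any comparison and for the 2 of each type with the highest mean CPM; from the other lists, called genes and a few preset ones are named. Alternatives were pseudocounts of 0.25 and 5, no filter, columns rescaled to equal totals, a replicate block, only the compared groups, array weights, a term for Y chromosome transcripts, edgeR 4.0.16 with TMM and DESeq2 1.42.0 on the recovered reads, and each library left out. The steps were tested on simulated data. A few genes of the comparison lists are not reported here.

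Gene models and stem-loops came from GENCODE M21 (GRCm38) and promoters from RefSeq (GRCm38.p6). Depth was 21935022 to 26263370 reads per library; an undetected gene could have held up to 3 reads, or 0.139 CPM in the shallowest case. There are no molecular identifiers, so such a limit covers counting error only. The design had foreseen plain CPM; its test was kept.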

Additional observations from a re-analysis of the deposited data

Results flagged for a closer look

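For 8 clustered histone genes the effect of a lesion had opposite signs with and without the other lesion, in every library. Lower with Tet2 loss alone and higher with Tet2 loss on the transgene were Hist1h2bb (interaction 1.65 ± 0.37), Hist1h2bj (1.60 ± 0.48), Hist1h2bl (0.99 ± 0.33), Hist1h2bm (1.42 ± 0.42), Hist1h2bp (1.40 ± 0.38), Hist2h2bb (1.40 ± 0.33) and Hist2h4 (1.11 ± 0.40). Lower with the transgene alone and higher with the transgene on Tet2 loss were Hist1h2bn (1.39 ± 0.39) and, again, Hist2h4. Over all 13046 tested genes the first pattern was seen in 24, of which 7 were members, and the second in 20, of which 2 were members; the opposite patterns were seen in 40 and 41 genes, none of them a member. All of the 8 genes but Hist2h4 are H2B genes. Those of cluster 1 share windows with one another. From 40.1% (Hist1h2bb) to 86.4% (Hist1h2bn) of their windows occur in other genes. Counts may therefore be split between copies, and these genes are not separate observations. Tet2 loss on the transgene is the double lesion against KDM6B OE, where Cre may differ too. Values are log2 ± SE. The difference itself was tested in limma as the interaction, and none passed (adjusted p = 0.999 for each).

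The case of Hist1h2bb reads as follows. It was at 6.30, 4.38 and 5.52 CPM in the double lesion, against 1.98, 2.87 and 2.97 CPM in KDM6B OE, and at 2.62, 3.29 and 5.61 CPM in Tet2 KO libraries, against 7.30, 8.51 and 6.19 CPM in Vav Cre. Hist2h4, a low H4 gene of cluster 2, was at 2.05, 2.11 and 2.68 CPM in the double lesion, against 0.440, 1.39 and 1.76 CPM in KDM6B OE, and at 1.41, 1.85 and 1.67 CPM in Tet2 KO libraries, against 3.65, 2.74 and 1.89 CPM in Vav Cre.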

How the results depend on the processing

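The number of clustered histone genes called depended on the setting more than their direction did. In KDM6B OE, 4 in the report, it was 7 with a pseudocount of 5, 2 without a filter, 14 with the replicate block (13 lower), 16 with array weights (15 lower), 9 with a term for Y chromosome transcripts, 24 with DESeq2 (22 lower) and 1 with only the compared groups; leaving out a library gave 0 to 23. In the double lesion, 11 in the report, it was 7 with the Y term and 3 with only the compared groups, and 3 to 15 with a library left out. In Tet2 KO it was 0 throughout except with a library left out (0 to 5). For the double lesion against Tet2 KO it was 3 with array weights, 2 with DESeq2, 1 with only the compared groups and 0 to 1 with a library left out. Against KDM6B OE and for the interaction it was 0 in every alternative run. The cause of these changes was not tested. Over all 22 alternatives the number of negative members tested was 46 to 49 for KDM6B OE, 49 to 53 for Tet2 KO and 41 to 46 for the double lesion; the median was −1.19 to −0.44, −0.71 to −0.36 and −0.76 to −0.24. Calls over all genes moved with the setting too, 22 to 1934, 0 to 307 and 289 to 3585. For the double lesion against Tet2 KO they were 9 to 55 with a library left out and 18 to 173 otherwise. Of 902 values of single genes 762 kept direction and side of the threshold, 93 lost and 22 gained a call, and 25 turned sign, all small and uncalled.

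The turned values, in log2, were these. In KDM6B OE Hist1h1b was at −0.050 with the Y term, −0.13 in edgeR, −0.15 in DESeq2 and −0.23 to 0.55 with a library left out (below 0 without any 1 of Vav Cre 1 and 2 and of KDM6B OE 1 and 2). In Tet2 KO it was at −0.00698 in edgeR, −0.022 in DESeq2 and −0.19 to 0.60 with a library left out (below 0 without Vav Cre 1, Vav Cre 2 or Tet2 KO 3). Hist1h2bc was at −0.10 (without KDM6B OE 1) to 0.42 in KDM6B OE with a library left out. In the double lesion it was at 0.039 with equal totals and −0.19 to 0.047 with a library left out, above 0 without Vav Cre 1, Vav Cre 2 or double lesion 1. Hist1h4i was at −0.050 in KDM6B OE with the Y term and −0.034 to 0.16 with a library left out (below 0 without Vav Cre 1 or KDM6B OE 1). In the double lesion it was at −0.12 to 0.15 with a library left out, below 0 without Vav Cre 1 or double lesion 3. Hist3h2a in the double lesion was at −0.019 in DESeq2 and −0.094 to 0.085 with a library left out, below 0 without Vav Cre 1 or double lesion 2.

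The labels give replicate numbers, but same-numbered libraries deviated together in 10 of 18 pairs only (correlation over 0.1; range −0.15 to 0.39), which does not meet the rule that every pair be over 0.1, so the block is given as an alternative. By number, 6 of 6 pairs were over 0.1 for number 1 (0.16 to 0.39), 3 of 6 for number 2 and 1 of 6 for number 3. In Tet2 KO and Vav Cre all 3 pairs were over 0.1 (0.30 to 0.34), and the replicate block gave 0 calls there too. It gave 13 in the double lesion.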
